A study of Mus musculus with 9 samples.

Results

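Ptprc, Csf1r, Adgre1, Cd68, Lyz2, Tyrobp, Fcer1g, Cd14, Spi1 and Aif1 are genes by which macrophages and other cells of the blood lineage are usually recognized. They were taken by gene name from the count table of cultured mouse adipose-derived stem cells (ASCs), where all 10 were found among 54532 genes, and were followed as a measure of leukocytes carried over from the tissue. ASCs from C57BL/6 mice had been isolated from subcutaneous (Sub-ASCs), abdominal (Ab-ASCs) and perivascular (PVASCs) adipose tissue by collagenase and Dispase digestion, and were passaged in stem cell medium with serum, leukemia inhibitory factor and FGF. The study's methods describe no sorting of the cells and no depletion of leukocytes before culture. Each group had 3 libraries, with 20524173 to 23832828 counted reads in Ab-ASCs, 23781019 to 26872579 in Sub-ASCs and 27136829 to 29881036 in PVASCs. The labels do not say whether the 3 libraries of a group came from separate mice, so p-values measure only the spread between these libraries, which may be technical. The labels give no age of the mice and no passage for a single library.

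Macrophages are resident in every adipose depot, where they clear dying adipocytes and take up lipid. They arise from precursors in which the transcription factor PU.1, encoded by Spi1, turns on the receptor for colony-stimulating factor 1 (Csf1r) and most other genes of the lineage. Ptprc encodes CD45, a phosphatase on the surface of all nucleated leukocytes, and its absence from the surface is one of the criteria for a mesenchymal stem cell. The other genes encode a surface receptor of macrophages (Adgre1, F4/80), a lysosomal glycoprotein (Cd68), lysozyme (Lyz2), a co-receptor for lipopolysaccharide (Cd14), adaptors with ITAM signalling motifs (Tyrobp, also DAP12, and Fcer1g, the common gamma chain of Fc receptors) and a calcium- and actin-binding protein (Aif1, IBA1). Several of them, Cd68 and Cd14 among them, are also known from cells outside the blood lineage.

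The 10 genes did not follow a shared pattern across the depots. Ptprc, Spi1, Adgre1, Cd68, Cd14, Tyrobp, Fcer1g and Aif1 were highest in Sub-ASCs, by 1.38-fold to 6.23-fold, whereas Lyz2 and Csf1r were lowest there. In edgeR quasi-likelihood F-tests, adjusted by Benjamini-Hochberg over 16526 genes and called at 0.05, all 10 genes differed among the 3 groups, as did 84.6% of the genes tested. In PVASCs 2 genes were higher and 8 lower than in Sub-ASCs, where 70.4% of all genes tested were called, 34.7% higher and 35.7% lower. In Ab-ASCs 2 were higher and 8 lower than in Sub-ASCs, where 75.3% of all genes were called, 37.0% higher and 38.3% lower. Between PVASCs and Ab-ASCs 1 was higher in PVASCs and 4 were lower, against 24.7% and 32.1% of all genes, a share of calls close to the 56.9% of all genes. Without Ab-ASC replicate 1 or without PVASC replicate 3, 3 of the 10 genes were called between these groups. The 10 genes had a median log2 fold change of -1.10 for PVASCs and -0.77 for Ab-ASCs against Sub-ASCs, and -0.19 for PVASCs against Ab-ASCs, while the medians over all genes tested were -0.0106, -0.0256 and -0.0552. In bulk libraries, fewer cells of a type and less RNA per cell cannot be told apart.

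**Figure D1:**
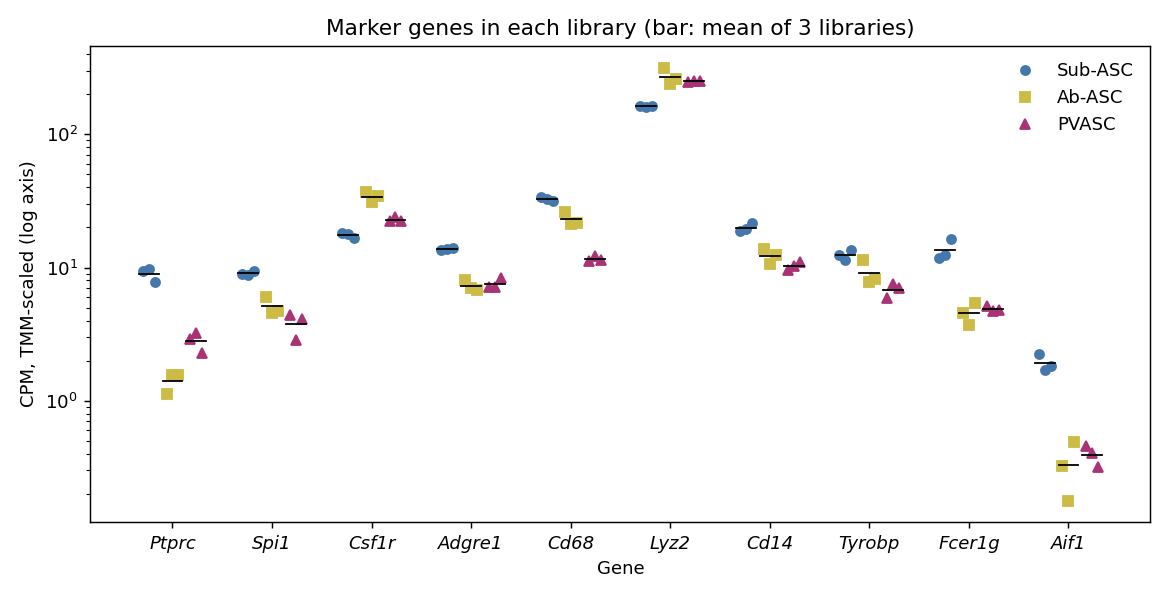
CPM of the 10 genes in each of the 9 libraries on a log axis. Points are libraries, with Sub-ASCs as circles, Ab-ASCs as squares and PVASCs as triangles, and black bars are means of 3 libraries. Lyz2 and Csf1r were lowest in Sub-ASCs and the other 8 genes highest there.

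All 10 genes were above the floor of 3 reads in every library. Values are given as CPM, the reads of a gene scaled to the size of its library with TMM factors, and 3 reads corresponded to 0.0917 to 0.161 CPM, a limit that covers counting error only. Stromal transcripts made up far more of the libraries. The 13 stromal and ASC genes listed beside them, among them Col1a1 and Ly6a (Sca1), summed to 25200 to 26200 CPM in Sub-ASCs, 15900 to 16300 in Ab-ASCs and 12200 to 12700 in PVASCs. The 10 genes summed to 293 ± 4.81 CPM in Sub-ASCs, 368 ± 51.6 CPM in Ab-ASCs and 320 ± 4.74 CPM in PVASCs (SD, n = 3), or 0.0286%, 0.0343% and 0.0349% of all counted reads. Lyz2 alone held 55.5% of these reads in Sub-ASCs, 73.5% in Ab-ASCs and 77.8% in PVASCs. Without Lyz2, a sum chosen after seeing the data, Sub-ASCs were the highest group in place of the lowest, with 130 ± 2.81 CPM in Sub-ASCs, 97.3 ± 10.5 CPM in Ab-ASCs and 70.9 ± 1.71 CPM in PVASCs (SD, n = 3).

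Ptprc, shared by all nucleated leukocytes, and Spi1, at the root of the lineage, were both highest in Sub-ASCs. Ptprc (ENSMUSG00000026395, minus strand of chromosome 1, 138062861 to 138175708) had 218, 246 and 204 reads in the Sub-ASC libraries, 21, 35 and 35 in Ab-ASCs and 96, 95 and 72 in PVASCs. The ranges of the groups did not overlap, and Sub-ASCs stood highest and Ab-ASCs lowest. This was 8.94 ± 1.01 CPM in Sub-ASCs, 1.41 ± 0.249 CPM in Ab-ASCs and 2.81 ± 0.476 CPM in PVASCs (SD, n = 3). Ptprc was 6.23-fold lower in Ab-ASCs than in Sub-ASCs (log2 fold change -2.64, SE 0.18, edgeR adjusted p = 3.54e-08) and 3.17-fold lower in PVASCs (-1.67, SE 0.15, edgeR adjusted p = 6.05e-07). It was the only gene of the 10 that was significantly higher in PVASCs than in Ab-ASCs, by 1.96-fold (0.97, SE 0.20, edgeR adjusted p = 0.00136). Per kilobase of its listed length of 18313 bases, Ptprc had the lowest level of the 10 genes in every group, and only 29.4%, 17.7% and 23.5% of the protein-coding genes with reads lay below it in Sub-ASCs, Ab-ASCs and PVASCs. That length was the longest of the 10 genes, and by CPM Aif1 lay below Ptprc in every group. CD45 was one of the surface markers by which the study tested its PVASCs in flow cytometry.

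Spi1 (ENSMUSG00000002111, plus strand of chromosome 2, 91082390 to 91115756), which encodes PU.1, was at 8.89, 8.76 and 9.46 CPM in the Sub-ASC libraries, 6.01, 4.58 and 4.73 CPM in Ab-ASCs and 4.4, 2.85 and 4.1 CPM in PVASCs. All Sub-ASC libraries lay above all others, and the lowest Ab-ASC library lay just above the highest PVASC library. Against Sub-ASCs, Spi1 was 2.38-fold lower in PVASCs (log2 fold change -1.25, SE 0.15, edgeR adjusted p = 1.10e-05) and 1.78-fold lower in Ab-ASCs (-0.83, SE 0.16, edgeR adjusted p = 0.000363). The 1.34-fold difference between PVASCs and Ab-ASCs passed the threshold only narrowly (-0.42, SE 0.17, edgeR adjusted p = 0.0486). It did not pass with DESeq2 (adjusted p = 0.0520), with RLE size factors (adjusted p = 0.0594) or in 7 of the 9 fits that each left out a library.

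PU.1 binds a purine-rich element and, as a member of the ETS family, recognizes a GGAA core. Shown are the promoters of the 4 matched genes in which any of the motifs marked below was found. Of these, Lyz2 was lower and Ptprc, Cd68 and Aif1 were higher in Sub-ASCs. The sequences are the 250 bases before the start in RefSeq on GRCm38.p6, 5′ to 3′ on the strand of the gene, which is the minus strand for all of them. Capitals mark the PU box GAGGAA, the ETS site AGGAAGT or the core of the interferon-stimulated response element (GAAA, any 2 bases, GAAA) on either strand, of which the first and second share the letters AGGAA.
Ptprc, chr1:138175306-138175555: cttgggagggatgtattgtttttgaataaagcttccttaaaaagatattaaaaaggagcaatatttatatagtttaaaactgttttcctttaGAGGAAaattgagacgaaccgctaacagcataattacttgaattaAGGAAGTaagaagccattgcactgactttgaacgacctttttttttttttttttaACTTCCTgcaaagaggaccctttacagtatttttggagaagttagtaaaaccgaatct
Lyz2, chr10:117282273-117282522: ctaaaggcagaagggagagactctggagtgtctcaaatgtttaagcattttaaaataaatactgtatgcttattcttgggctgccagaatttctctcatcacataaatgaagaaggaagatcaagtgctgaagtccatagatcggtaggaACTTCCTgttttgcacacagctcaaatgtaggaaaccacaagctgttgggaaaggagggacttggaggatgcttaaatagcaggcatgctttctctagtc
Cd68, chr11:69666171-69666420: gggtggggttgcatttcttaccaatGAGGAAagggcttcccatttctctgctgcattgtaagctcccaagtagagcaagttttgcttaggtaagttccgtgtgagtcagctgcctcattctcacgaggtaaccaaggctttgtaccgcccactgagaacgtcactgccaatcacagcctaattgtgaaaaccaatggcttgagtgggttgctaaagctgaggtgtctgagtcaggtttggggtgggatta
Aif1, chr17:35176053-35176302: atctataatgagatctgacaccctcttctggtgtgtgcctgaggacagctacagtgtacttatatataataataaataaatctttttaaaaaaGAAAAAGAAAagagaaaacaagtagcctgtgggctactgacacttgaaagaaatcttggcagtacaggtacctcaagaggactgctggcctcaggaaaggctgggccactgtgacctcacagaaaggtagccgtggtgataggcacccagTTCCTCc

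Promoters were matched for 5 of the 10 genes, and that of Fcer1g held none of the 3 motifs and is not shown. Fcer1g was also higher in Sub-ASCs, as were Ptprc, Cd68 and Aif1. For Ptprc, which has more than 1 listed start, the window with more matches is shown. GAGGAA was in the promoters of 3 of the 5 genes, for Ptprc in 1 of its 2 windows, and in 23.3% of all 32851 single promoter windows of this length. AGGAAGT was in 2 of the 5, Ptprc and Lyz2, and in 7.69% of all windows. The interferon response core was in that of Aif1 and in 2.98% of all windows. These matches describe letters in the windows, and binding was not measured.

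Csf1r and Lyz2 were the exceptions to the order of the other genes. Csf1r (ENSMUSG00000024621, plus strand of chromosome 18), the receptor on which macrophage survival depends, was at 18.1, 17.8 and 16.7 CPM in Sub-ASCs, 37.0, 30.8 and 34.4 CPM in Ab-ASCs and 22.2, 24 and 22.3 CPM in PVASCs. No ranges overlapped, and Ab-ASCs were highest. The gene was 1.94-fold higher in Ab-ASCs (log2 fold change 0.96, SE 0.08, edgeR adjusted p = 2.85e-07) and 1.30-fold higher in PVASCs (0.38, SE 0.08, edgeR adjusted p = 0.000993) than in Sub-ASCs, and 1.49-fold lower in PVASCs than in Ab-ASCs (-0.58, SE 0.078, edgeR adjusted p = 6.06e-05). By the listed positions, Csf1r shares 871 bases with Hmgxb3 on the opposite strand, which had 878 to 1567 reads per library. Whether reads were counted by strand is not given in the sources used here, and without strand the reads of the shared bases cannot be told apart.

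Lyz2 (ENSMUSG00000069516, minus strand of chromosome 10, 117277331 to 117282321), which encodes the lysozyme of macrophages, was at 164, 160 and 164 CPM in Sub-ASCs, 317, 238 and 258 CPM in Ab-ASCs and 246, 252 and 250 CPM in PVASCs. Sub-ASCs lay below all other libraries, and Ab-ASC replicate 1 lay far above the other Ab-ASC libraries, between which all PVASC libraries lay. Lyz2 was 1.67-fold higher in Ab-ASCs (log2 fold change 0.74, SE 0.085, edgeR adjusted p = 6.01e-06) and 1.53-fold higher in PVASCs (0.62, SE 0.085, edgeR adjusted p = 3.28e-05) than in Sub-ASCs. Between PVASCs and Ab-ASCs the log2 fold change was -0.12 (SE 0.085, edgeR adjusted p = 0.24), and 0.00425 without Ab-ASC replicate 1. By level per kilobase Lyz2 ranked 353 of 16588 protein-coding genes with reads in Sub-ASCs, 230 of 16348 in Ab-ASCs and 190 of 16909 in PVASCs. Its close paralog Lyz1, the lysozyme of intestinal Paneth cells, took 0.0622% to 0.270% of the reads of the pair, and reads shared by both genes cannot be assigned with certainty.

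The surface and lysosomal markers of mature macrophages, Adgre1 and Cd68, were both highest in Sub-ASCs but differed in how the other depots lay to each other. Adgre1 (ENSMUSG00000004730, plus strand of chromosome 17, 57358691 to 57483527) was at 13.5, 13.7 and 14.1 CPM in Sub-ASCs, 8.11, 6.98 and 6.78 CPM in Ab-ASCs and 7.15, 7.12 and 8.30 CPM in PVASCs. The Ab-ASC and PVASC libraries were interleaved and all lay below Sub-ASCs. It was 1.83-fold lower in PVASCs (log2 fold change -0.87, SE 0.097, edgeR adjusted p = 4.60e-06) and 1.90-fold lower in Ab-ASCs (-0.92, SE 0.10, edgeR adjusted p = 3.77e-06). The difference between PVASCs and Ab-ASCs was 0.051 (SE 0.10, edgeR adjusted p = 0.699).

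For Cd68 (ENSMUSG00000018774, minus strand of chromosome 11, 69664213 to 69666153) the values were 34.1, 32.9 and 31.5 CPM in Sub-ASCs, 26.1, 21.4 and 21.7 CPM in Ab-ASCs and 11.2, 12.3 and 11.3 CPM in PVASCs. The groups were fully separate, with PVASCs lowest. The gene was 2.84-fold lower in PVASCs (log2 fold change -1.50, SE 0.087, edgeR adjusted p = 8.20e-09) and 1.43-fold lower in Ab-ASCs (-0.51, SE 0.085, edgeR adjusted p = 0.000136) than in Sub-ASCs, and 1.99-fold lower in PVASCs than in Ab-ASCs (-0.99, SE 0.089, edgeR adjusted p = 1.87e-06). Lysosomal genes that all cells use lay in the same direction. All 10 of a list of them were lower in PVASCs and all 10 were lower in Ab-ASCs than in Sub-ASCs, with medians of -1.46 and -1.17. Beside this and the later lists, 35.7% of all genes tested were lower and 34.7% higher in PVASCs than in Sub-ASCs. In Ab-ASCs 38.3% were lower and 37% higher. Ctsb, the cathepsin B gene, was at 5790 ± 86.1 CPM in Sub-ASCs, 1330 ± 97.2 CPM in Ab-ASCs and 1190 ± 44.1 CPM in PVASCs (SD, n = 3). The part of this general lysosomal difference in that of Cd68 was not tested.

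**Figure D2:**
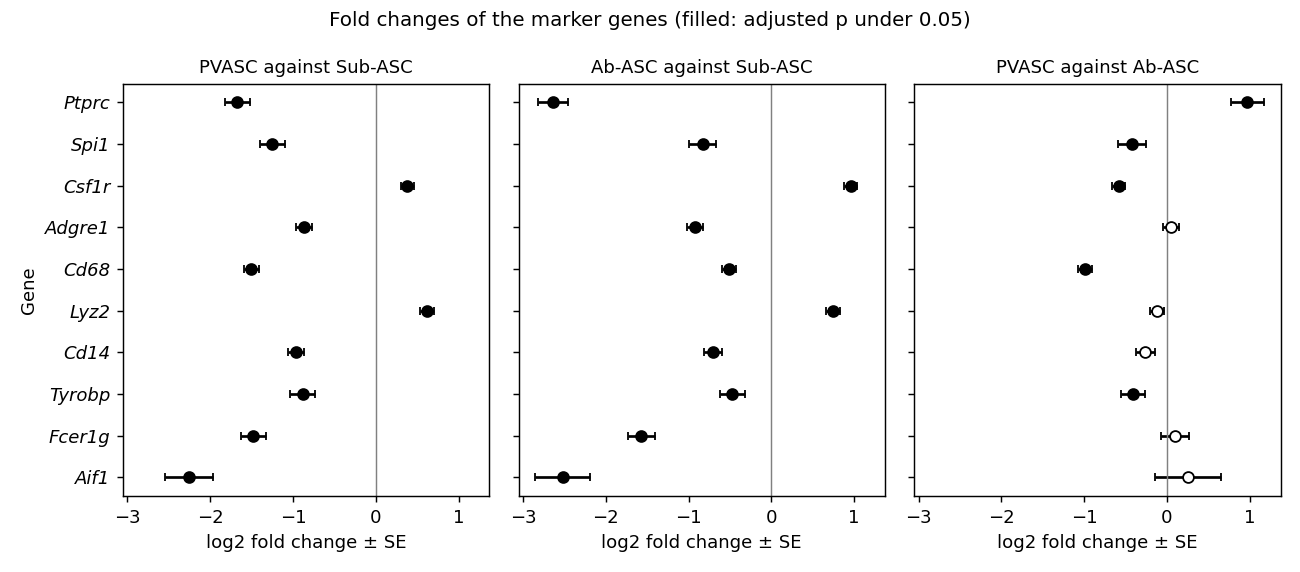
Log2 fold changes of the 10 genes with standard errors for the 3 pairs of groups, from edgeR. Filled points passed an adjusted p of 0.05. Against Sub-ASCs, 8 genes lay left of 0 and Csf1r and Lyz2 right of it in both comparisons, whereas 5 of the 10 genes passed between PVASCs and Ab-ASCs.

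Tyrobp and Fcer1g encode small membrane adaptors that lend an ITAM to activating receptors. Tyrobp (ENSMUSG00000030579, plus strand of chromosome 7, 30413760 to 30417585) had 11.4 to 13.6 CPM in Sub-ASCs, 7.73 to 11.4 CPM in Ab-ASCs and 5.90 to 7.56 CPM in PVASCs. Its highest Ab-ASC library, replicate 1, came within rounding of the lowest Sub-ASC library. It was 1.84-fold lower in PVASCs (log2 fold change -0.88, SE 0.15, edgeR adjusted p = 0.000157) and 1.38-fold lower in Ab-ASCs (-0.47, SE 0.15, edgeR adjusted p = 0.0123) than in Sub-ASCs. The 1.33-fold difference between PVASCs and Ab-ASCs (-0.41, SE 0.15, edgeR adjusted p = 0.0357) was lost without Ab-ASC replicate 1 (adjusted p = 0.137), without PVASC replicate 1 (adjusted p = 0.133) and without PVASC replicate 3 (adjusted p = 0.0685). With the replicate number as a block its adjusted p was 0.0562. Against Sub-ASCs, the lower level in Ab-ASCs was no longer called without Sub-ASC replicate 3 (adjusted p = 0.0502), Ab-ASC replicate 2 (adjusted p = 0.0539) or Ab-ASC replicate 3 (adjusted p = 0.0565).

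Fcer1g (ENSMUSG00000058715, minus strand of chromosome 1, 171229572 to 171234365) was at 11.7, 12.5 and 16.5 CPM in Sub-ASCs, 4.56, 3.73 and 5.44 CPM in Ab-ASCs and 5.17, 4.68 and 4.80 CPM in PVASCs. The Sub-ASC libraries lay above all others, and PVASC libraries fell within the range of Ab-ASCs. The gene was 2.78-fold lower in PVASCs (log2 fold change -1.48, SE 0.15, edgeR adjusted p = 1.95e-06) and 2.97-fold lower in Ab-ASCs (-1.57, SE 0.16, edgeR adjusted p = 1.77e-06). Between PVASCs and Ab-ASCs it differed by 0.093 (SE 0.17, edgeR adjusted p = 0.664).

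Receptors that pair with these adaptors, and the kinase Syk that they activate, made up a list of 12 genes, of which 10 could be tested. In PVASCs 7 were lower and none higher than in Sub-ASCs, and in Ab-ASCs 8 were lower and 1, Trem2, higher. These counts include Fcer1a, which passed the low-count filter only through Sub-ASCs, so that its direction was fixed, and with 10 reads required in every library 4 were called in PVASCs against Sub-ASCs. Fcgr3, the Fc receptor for IgG with the highest level per kilobase on this list, was at 26.7 ± 0.89 CPM in Sub-ASCs, 13.8 ± 2.42 CPM in Ab-ASCs and 8.94 ± 0.826 CPM in PVASCs (SD, n = 3). Fcer1a, the IgE-binding chain found with Fcer1g on mast cells and basophils, had 58 to 69 reads in each Sub-ASC library and 0 in all 6 others, so Sub-ASCs exceeded Ab-ASCs by at least 17.9-fold and PVASCs by at least 26.6-fold. Mast cell transcripts thus moved with Fcer1g, and their part in its difference was not tested.

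Cd14 (ENSMUSG00000051439, minus strand of chromosome 18) presents bacterial lipopolysaccharide to Tlr4. It had 18.9 to 21.6 CPM in Sub-ASCs, 10.6 to 13.8 CPM in Ab-ASCs and 9.60 to 11 CPM in PVASCs, with Sub-ASCs above all other libraries. The gene was 1.94-fold lower in PVASCs (log2 fold change -0.96, SE 0.10, edgeR adjusted p = 3.39e-06) and 1.63-fold lower in Ab-ASCs (-0.70, SE 0.11, edgeR adjusted p = 5.91e-05) than in Sub-ASCs. Between PVASCs and Ab-ASCs the difference was -0.26 (SE 0.11, edgeR adjusted p = 0.0605), and without Ab-ASC replicate 2 it passed (adjusted p = 0.0119). Of the 8 genes listed for lipopolysaccharide sensing with Cd14, 7 could be tested, and all 7 were lower in PVASCs and in Ab-ASCs than in Sub-ASCs. Lbp, which encodes the lipopolysaccharide-binding protein, was at 506 ± 9.78 CPM in Sub-ASCs and only 15.4 ± 1.29 CPM in Ab-ASCs and 11.5 ± 0.815 CPM in PVASCs (SD, n = 3). Tlr4 was 1.85-fold lower in PVASCs and 4.50-fold lower in Ab-ASCs, and Myd88, the adaptor below the receptor, 2.61-fold and 2.67-fold lower.

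Aif1 (ENSMUSG00000024397, minus strand of chromosome 17, 35170991 to 35176068) had the fewest reads of the 10 genes. There were 52, 43 and 48 reads in the Sub-ASC libraries, 6, 4 and 11 in Ab-ASCs and 15, 12 and 10 in PVASCs. Sub-ASCs lay well above the other groups, which overlapped each other. The gene was 4.80-fold lower in PVASCs (log2 fold change -2.26, SE 0.29, edgeR adjusted p = 1.83e-05) and 5.72-fold lower in Ab-ASCs (-2.52, SE 0.33, edgeR adjusted p = 1.76e-05). At these counts a difference between PVASCs and Ab-ASCs was not detectable (0.25, SE 0.40, edgeR adjusted p = 0.612).

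Levels per kilobase (CPM per kb) depend on the listed gene length, and whether it is that of the transcripts read was not tested. The level of Ptprc rests on the longest listed length of these genes, 18313 bases, and by CPM Aif1 lay lower. In Sub-ASCs the order was Lyz2 (123 ± 1.85 CPM per kb), Cd68 (26.1 ± 1.03), Tyrobp (18.7 ± 1.63), Fcer1g (15.5 ± 2.93), Cd14 (12.7 ± 0.928), Adgre1 (4.26 ± 0.104), Csf1r (3.59 ± 0.146), Spi1 (3.35 ± 0.137), Aif1 (1.25 ± 0.184) and Ptprc (0.488 ± 0.0553; SD, n = 3). Neighbours overlapped for Tyrobp and Fcer1g, for Fcer1g and Cd14 and for Csf1r and Spi1. In Ab-ASCs Csf1r moved up to 6.98 ± 0.636 CPM per kb, where it overlapped Cd14 (7.83 ± 1.01) and stood above Fcer1g (5.24 ± 0.976). In PVASCs Tyrobp (10.2 ± 1.26) and Cd68 (9.21 ± 0.483) overlapped in the second and the third place. Lyz2 was first and Ptprc last in every group.

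Because the fold changes differed from gene to gene, the proportions of the 10 genes to each other differed between the groups. For each read of Adgre1 there were 11.6 to 12.2 reads of Lyz2 in the Sub-ASC libraries, 34.1 to 39.1 in Ab-ASCs and 30.1 to 35.3 in PVASCs. The reads of Csf1r per read of Adgre1 were 1.18 to 1.34, 4.42 to 5.07 and 2.69 to 3.38 in the same order. Neither ratio overlapped between Sub-ASCs and the other groups. Ptprc ran the other way, with 0.550 to 0.705 reads per read of Adgre1 in Sub-ASCs, 0.139 to 0.230 in Ab-ASCs and 0.276 to 0.452 in PVASCs. The ratio of Csf1r to Ptprc reads therefore went from 1.85 to 2.15 in Sub-ASCs to 19.8 to 32.9 in Ab-ASCs and 7.46 to 9.74 in PVASCs. The proportions of Cd14 and Spi1 to Adgre1 lay closer together across the groups, although Spi1 was lower in PVASCs. Reads of Cd14 per read of Adgre1 were 1.40 to 1.53 in Sub-ASCs, 1.52 to 1.84 in Ab-ASCs and 1.33 to 1.43 in PVASCs, and those of Spi1 0.639 to 0.668, 0.656 to 0.742 and 0.400 to 0.615. These ratios are descriptions and were not tested.

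**Figure D3:**
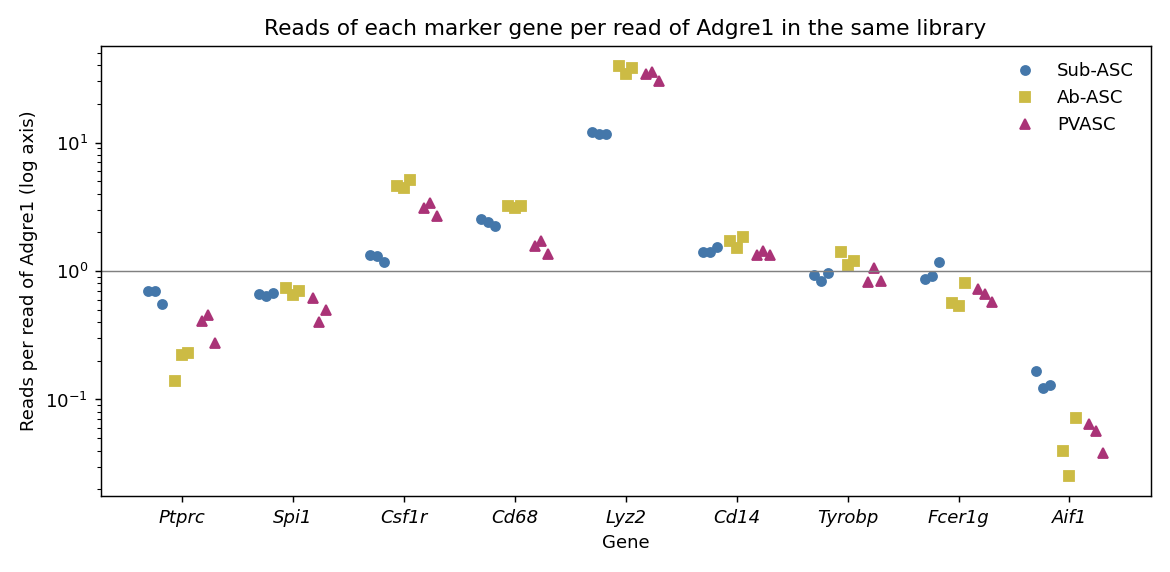
Reads of 9 of the genes per read of Adgre1 in the same library, on a log axis. Points are libraries, with Sub-ASCs as circles, Ab-ASCs as squares and PVASCs as triangles, and the line marks equal reads. Lyz2 and Csf1r stood higher in relation to Adgre1 in Ab-ASCs and PVASCs than in Sub-ASCs, and Ptprc and Aif1 lower.

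Other genes shared by leukocytes were counted beside the 10. Of 15 such genes, all tested, 12 were lower and 2, Cd53 and Hcls1, higher in PVASCs relative to Sub-ASCs, and 13 were lower and 1, Cd53, higher in Ab-ASCs, with medians of -1.0 and -1.01. Cd53, a tetraspanin of leukocytes, was at 11.5 ± 0.156 CPM in Sub-ASCs, 32.1 ± 1.36 CPM in Ab-ASCs and 52.5 ± 0.684 CPM in PVASCs (SD, n = 3), so that PVASCs exceeded Sub-ASCs by 4.58-fold (log2 fold change 2.19, SE 0.062, edgeR adjusted p = 8.88e-12). Lcp2, an adaptor of antigen receptor signalling, lay the other way, 5.97-fold lower in PVASCs and 4.19-fold lower in Ab-ASCs. Itgb2, the common chain of the leukocyte integrins, was 2.0-fold and 1.74-fold lower. Cd53 thus departed from Ptprc in the same direction as Csf1r and Lyz2.

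Further macrophage and monocyte genes were mostly higher in Sub-ASCs. Of 20 listed, of which Fcgr1 and Trem2 also stand on the list of adaptor partners, 17 were tested, with 12 lower and 3 higher in PVASCs and 12 lower and 2 higher in Ab-ASCs, and medians of -1.12 and -1.29. Among the higher ones, Vsig4 passed the low-count filter only through PVASCs, which fixed its direction. Ctss, cathepsin S of antigen-presenting cells, was at 117 ± 5.30 CPM in Sub-ASCs, 30.1 ± 1.48 CPM in Ab-ASCs and 22.5 ± 1.35 CPM in PVASCs, and C1qb, a chain of complement C1q, at 32.3 ± 3.15, 12.1 ± 3.45 and 16.7 ± 0.589 CPM (SD, n = 3). Clec7a, the receptor for fungal beta-glucan, was 19.3-fold lower in PVASCs and 16.8-fold lower in Ab-ASCs. The scavenger receptor gene Marco went against this, with 24 to 33 reads in Sub-ASC libraries, 27 to 36 in Ab-ASCs and 376 to 426 in PVASCs, so that PVASCs exceeded Sub-ASCs by 11.6-fold (log2 fold change 3.54, SE 0.17, edgeR adjusted p = 1.15e-09). Ccr2, a gene of recruited monocytes, had 10 to 20 reads in Sub-ASC libraries, 1 to 5 in Ab-ASCs and at most 1 in PVASCs. Timd4, a gene of resident cells, had at most 3 reads in any library, and Cx3cr1 at most 4. Other genes of this list had reads in every library. In Sub-ASCs, Ab-ASCs and PVASCs, Mrc1 had 712 to 904, 191 to 353 and 435 to 477. Cd163 had 50 to 60, 51 to 71 and 15 to 25, and Folr2 30 to 32, 28 to 37 and 18 to 34. Ccr2, Timd4, Cx3cr1, Mrc1, Cd163 and Folr2 were chosen after their values were seen.

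The factors that act with PU.1 in myeloid cells fell in the same direction as Spi1. All 6 listed were lower in PVASCs than in Sub-ASCs, and 5 were lower in Ab-ASCs, with medians of -2.08 and -1.32. Irf8, a factor of monocytes and dendritic cells, was 3.97-fold lower in PVASCs and 8.64-fold lower in Ab-ASCs. Cebpa and Cebpb, which also act in adipocyte differentiation, were 5.62-fold and 2.65-fold lower in PVASCs. The groups lay in the same order for Csf1, the main ligand of Csf1r, as for the receptor, with Sub-ASCs lowest. Csf1 was at 1030 ± 26.2 CPM in Sub-ASCs, 6260 ± 164 CPM in Ab-ASCs and 2670 ± 50.1 CPM in PVASCs (SD, n = 3), which placed it at rank 211, 20 and 48 of the protein-coding genes by level per kilobase. The other ligand, Il34, was at 2.21 to 3.02 CPM on average and rose by 1.37-fold from Sub-ASCs to PVASCs (edgeR adjusted p = 0.0186), and without Sub-ASC replicate 2 or 3 only 1 of the 2 ligands passed.

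Most markers of other leukocytes were at or under the floor outside Sub-ASCs. Of 20 markers of T cells, B cells, NK cells, granulocytes, mast cells and dendritic cells, 12 had no library over 3 reads in Ab-ASCs and 13 had none in PVASCs, compared with 5 in Sub-ASCs. Cd3e, Cd3g, Cd4, Cd8a, Ncr1 and Flt3 had no read in any Ab-ASC library, and Cd3d, Cd3e, Cd3g, Ncr1, Mcpt4 and Flt3 had none in PVASCs. Their summed level was 65.0 to 70.3 CPM in Sub-ASCs, 4.53 to 6.39 CPM in Ab-ASCs and 1.39 to 2.19 CPM in PVASCs. Most of it in Sub-ASCs was from the mast cell proteases. Mcpt4 had 834 to 952 reads in Sub-ASC libraries, 0 to 4 in Ab-ASCs and 0 in PVASCs, at least 379-fold lower in PVASCs, and Cpa3 had 359 to 543, 0 to 1 and 0 to 4 reads. The genes of the CD3 chains of the T cell receptor, Cd3d, Cd3e and Cd3g, named after their values were seen, had 3 to 8 reads in Sub-ASC libraries and at most 1 elsewhere. Most of the 12 genes on this list that passed the low-count filter passed through a single group, mainly Sub-ASCs, which fixes their direction, so no count of calls or median is given. S100a9, a calprotectin subunit of neutrophils, was highest in Ab-ASCs, with 10 to 13 reads in Ab-ASC libraries against 1 to 2 in Sub-ASCs and 0 to 1 in PVASCs.

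The haemoglobin genes Hba-a1 and Hbb-bs had at most 3 reads in any library. Only 4 of the 9 erythroid and megakaryocyte genes were tested. Pf4, a platelet chemokine gene also known from macrophages, was at 71.9 ± 9.20 CPM in Ab-ASCs, 19.2 ± 1.26 CPM in Sub-ASCs and 6.36 ± 0.555 CPM in PVASCs (SD, n = 3), and Ppbp, another platelet chemokine gene, had 44 to 74 reads in Ab-ASC libraries and at most 3 in the others.

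Genes of the vessel wall and the stroma also differed between the groups. Of 5 endothelial genes, 4 were higher and 1 lower in PVASCs relative to Sub-ASCs, and 5 were lower in Ab-ASCs, with medians of 1.99 and -1.43. Emcn (endomucin) was at 279 ± 6.06 CPM in PVASCs against 20.2 ± 1.44 CPM in Sub-ASCs, and Tek was 3.10-fold lower in PVASCs. Of the 13 stromal genes, 5 were higher and 8 lower both in PVASCs and in Ab-ASCs, with medians of -0.49 and -0.21, and Ly6a was 18.4-fold and 94.4-fold lower. The part of these other cell types in the differences of the 10 genes was not tested. Between PVASCs and Ab-ASCs, 4 of 15 shared leukocyte genes were higher and 1 lower in PVASCs. Of 17 further macrophage genes 4 were higher and 8 lower.

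**Figure D4:**
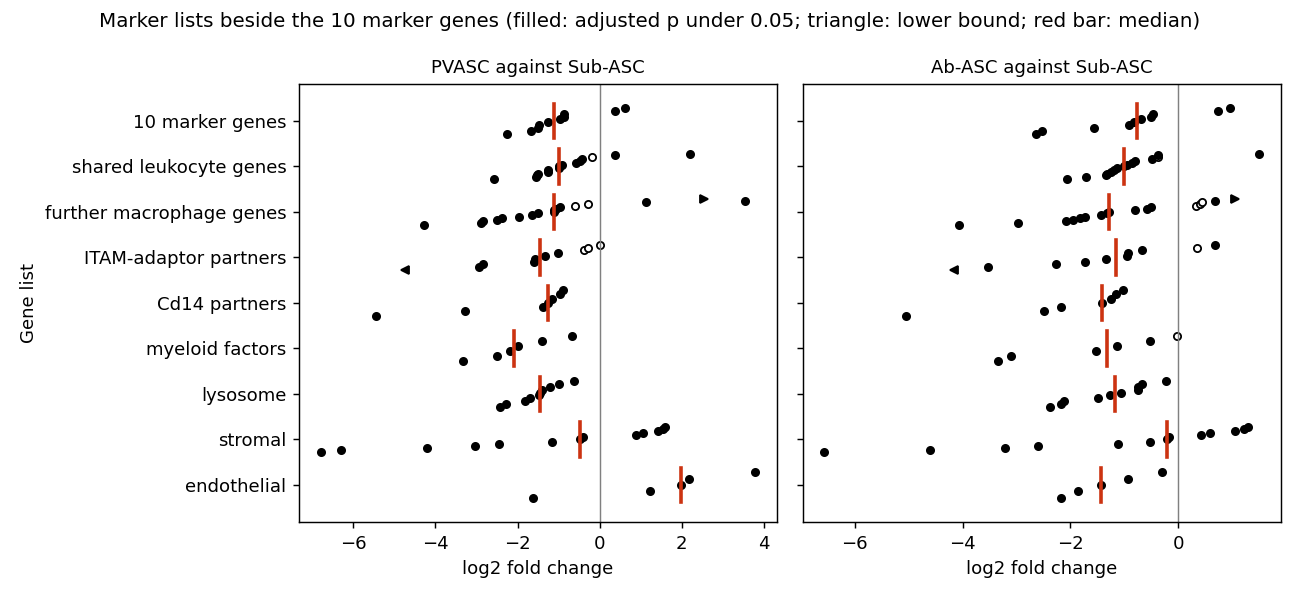
Log2 fold changes against Sub-ASCs for the 10 genes and 8 of the 11 further lists. The other leukocytes, the erythroid and megakaryocyte genes and the Csf1r ligands are not drawn. The ligands had medians of 0.92 in PVASCs and 1.37 in Ab-ASCs. Each point is a gene tested, filled where the adjusted p was under 0.05, triangles are genes with at most 3 reads per library in the lower group, set at the bound that 3 reads allow, and red bars are medians. The 10 genes had medians of -1.10 and -0.77, and the shared leukocyte, further macrophage, lysosomal and myeloid lists also lay mostly left of 0.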

How the data were processed

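Libraries had been made with a NEBNext Ultra kit from Trizol-extracted RNA, and the company Novogene did the sequencing. The authors deposited raw counts of reads per gene for 9 libraries, with gene length and position, and every column of counts was used. The submitters' processing notes name CASAVA 1.8, Bowtie 0.12.2, featureCounts 1.5.0-p3, mm8 and mm10, without roles, and no test of the counts is stated. Of 54532 genes, 53462 had the start and end of GENCODE M21 on GRCm38, the build of mm10. Totals ranged from 20524173 to 29881036 reads per library.

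Groups were taken from the sample titles. Genes kept by filterByExpr (16526) were tested with edgeR 4.0.16 in R 4.3.3, with TMM scaling, all 9 libraries in 1 fit without covariates, the quasi-likelihood F-test and Benjamini-Hochberg adjustment over all genes tested. SEs were derived from the F statistic. The procedure was tested on simulated data. Fold changes are fitted values, and where a group had at most 3 reads in every library, a bound against 3 reads per library is given instead. CPM per kb is CPM divided by the listed gene length.

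The 10 genes and the 11 lists beside them were chosen with earlier results of these data known. Named from each list were the 2 genes with the highest level per kilobase and the called gene with the largest fold change for each pair of groups, and some list genes are not reported here. Promoter motifs were also chosen with the results known. Alternatives were DESeq2 1.42.0, RLE factors, other low-count filters, fits of only the groups compared, a replicate block, a fold-change cutoff and leaving out each library. Python 3.11.15, pandas 2.3.3, numpy 2.4.6 and matplotlib 3.10.9 served for tables and plots.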

Additional observations from a re-analysis of the deposited data

How the results depend on the processing

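For the 10 genes, 447 fold changes were recomputed, of which 420 kept their direction and their side of the threshold, 20 lost the call, 2 gained it and 5 changed sign. All changes were between PVASCs and Ab-ASCs, except the 3 of Tyrobp between Ab-ASCs and Sub-ASCs given above. The counts for PVASCs against Sub-ASCs and for Ab-ASCs against Sub-ASCs stayed at 10 with DESeq2, RLE factors, no filter, fits of only the groups compared and the replicate block, and at 9 where 10 reads in every library were required, since Aif1 was then not tested. Requiring a log2 fold change of 1 or more in size left 5 genes in PVASCs against Sub-ASCs, all lower, 3 in Ab-ASCs against Sub-ASCs, all lower, and 0 in PVASCs against Ab-ASCs. For PVASCs against Ab-ASCs the count of 5 became 3 with at least 10 reads in every library and 3 in a fit of only these groups. Leaving out a library gave 3 to 7, with 3 without Ab-ASC replicate 1 or PVASC replicate 3. In the same fits the log2 fold changes that changed sign ranged from -0.0258 to 0.128 for Adgre1, from -0.212 to 0.00425 for Lyz2, from -0.0454 to 0.241 for Fcer1g and from -0.0673 to 0.681 for Aif1. The cause of these changes was not tested.

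Same-numbered libraries shared little, with correlations of their deviations between -0.0514 and 0.0950 over the 3 pairs of groups, so the number was not taken as pairing. With the replicate block 10 genes were called in each comparison with Sub-ASCs and 4 between PVASCs and Ab-ASCs. The summed level of the 10 genes was 286 CPM in Sub-ASCs, 343 CPM in Ab-ASCs and 349 CPM in PVASCs when scaled by library totals, which put PVASCs above Ab-ASCs where TMM scaling had put them below. It was 130, 97.3 and 70.9 CPM in Sub-ASCs, Ab-ASCs and PVASCs without Lyz2, a choice made after seeing the data.

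Counts on the lists moved by over 1.5 times mainly between PVASCs and Ab-ASCs. Where a log2 fold change of 1 or more was required, this comparison went from 5 to 1 shared leukocyte genes, 12 to 5 further macrophage genes, 5 to 1 adaptor partners, 3 to 1 Cd14 partners, 5 to 2 myeloid factors, 8 to 1 lysosomal genes and 12 to 6 stromal genes. In PVASCs against Sub-ASCs it left 7 of 14 shared leukocyte genes and 1 of 2 ligands, and in Ab-ASCs against Sub-ASCs 9 of 14 shared leukocyte genes, 5 of 9 adaptor partners, 6 of 10 lysosomal, 8 of 13 stromal and 3 of 5 endothelial genes. With 10 reads in every library 4 of 7 adaptor partners were called in PVASCs against Sub-ASCs. In a fit of only PVASCs and Ab-ASCs, 5 of 8 lysosomal genes were called, and 2 ligands in place of 1. Between these groups 3 of 5 shared leukocyte genes were called without Ab-ASC replicate 3, and 3 of 5 adaptor partners without PVASC replicate 3.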
